A study of Homo sapiens with 10 samples.

Results

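The H3K27Ac ChIP-seq peaks of MDAMB231 cells were all 37495 regions of a single peak list, taken without selection, out of 128837 regions in the 4 lists of the series. MDAMB231 is an established human breast cancer line that lacks the estrogen and progesterone receptors and HER2 amplification, grown untreated in DMEM with serum. The series held 2 H3K27Ac, 2 H3K4me1 and 2 H3K4me3 ChIP samples with 1 ChIP input, and 2 FAIRE samples with 1 FAIRE input, and no treated or control cells. The H3K27Ac list was called by the authors with MACS on both samples together against the ChIP input, so no value below has an error between replicates, and the read depth behind each peak is not given in the list. The other 3 lists (26771 H3K4me1, 18019 H3K4me3 and 46552 FAIRE peaks, likewise from combined samples) were used only to describe the H3K27Ac peaks. Peaks are called on 1 line and neighbouring peaks are not independent, so the lists are described by counts, medians and intervals, and no test was made.

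Acetylation of lysine 27 of histone H3 is laid down mainly by the acetyltransferases p300 and CBP, and is found on nucleosomes that flank active promoters and active enhancers. At promoters it usually lies with H3K4me3, and at enhancers with H3K4me1. FAIRE recovers DNA that is depleted of nucleosomes, which in an acetylated region is where transcription factors usually bind. AP-1, a dimer of JUN and FOS family proteins that recognises TGAGTCA and its reverse TGACTCA, is a known factor at enhancers of breast lines of this type. The letters TGANTCA counted here also take in TGAATCA and TGATTCA.

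The sequences below come from 3 of the 5 clusters of H3K27Ac peaks with the most acetylated bases, and show the open DNA inside acetylated regions away from gene starts. For the PRKCH, SMAD3 and ARHGAP29 clusters the 200 bases around the centre of the tallest FAIRE peak that lay wholly inside a distal H3K27Ac peak were read from the plus strand of GRCh37 (hg19), outside annotated exons. The cluster at ACTN4 had 1 such FAIRE peak and its window met an exon, so none is shown. The cluster at ERRFI1 had such windows and is not shown, for a reason other than its values. Capitals mark TGANTCA on either strand.
PRKCH cluster, tallest: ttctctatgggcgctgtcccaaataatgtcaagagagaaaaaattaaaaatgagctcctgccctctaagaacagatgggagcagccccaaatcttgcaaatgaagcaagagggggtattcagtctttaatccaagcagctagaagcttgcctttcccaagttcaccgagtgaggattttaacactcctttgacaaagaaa
SMAD3 cluster, tallest: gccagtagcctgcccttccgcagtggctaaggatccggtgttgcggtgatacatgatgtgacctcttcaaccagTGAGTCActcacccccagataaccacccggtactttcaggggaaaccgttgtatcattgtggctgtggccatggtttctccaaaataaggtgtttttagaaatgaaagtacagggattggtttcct
ARHGAP29 cluster, tallest: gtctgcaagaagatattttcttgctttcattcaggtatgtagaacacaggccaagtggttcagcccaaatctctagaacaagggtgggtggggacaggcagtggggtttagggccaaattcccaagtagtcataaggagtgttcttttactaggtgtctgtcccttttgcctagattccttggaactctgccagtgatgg
The PRKCH window (chr14:61969383-61969582) was in an intron of PRKCH, with a FAIRE height of 70.4 and an H3K27Ac score of 1402. In an intron of SMAD3, the window at chr15:67383701-67383900 had a FAIRE height of 112.7, an H3K27Ac score of 1305 and a match to TGANTCA. The ARHGAP29 window (chr1:94724583-94724782) was in introns of ARHGAP29 and of its antisense gene ARHGAP29-AS1, with a FAIRE height of 118.1 and an H3K27Ac score of 3100.

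For the PRKCH and ARHGAP29 clusters, whose tallest windows had no match, the tallest FAIRE peak whose window did hold TGANTCA is given. These windows were chosen after the matches were seen.
PRKCH cluster, with TGANTCA: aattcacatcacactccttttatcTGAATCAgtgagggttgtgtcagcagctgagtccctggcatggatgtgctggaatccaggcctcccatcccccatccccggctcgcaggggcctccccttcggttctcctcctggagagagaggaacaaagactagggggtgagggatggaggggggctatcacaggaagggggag
ARHGAP29 cluster, with TGANTCA: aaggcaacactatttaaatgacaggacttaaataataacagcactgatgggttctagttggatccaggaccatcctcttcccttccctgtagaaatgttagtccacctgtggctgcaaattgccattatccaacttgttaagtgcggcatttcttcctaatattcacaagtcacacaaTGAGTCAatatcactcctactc
The PRKCH window (chr14:61933062-61933261) was in an intron, in a lower FAIRE peak of height 62.3 and an H3K27Ac peak with a score of 439.6. The ARHGAP29 window (chr1:94720997-94721196) lay in the same H3K27Ac peak as the window without a match, in a FAIRE peak of height 68.7. Of all the windows that could have been taken, 3 of 21 in the ERRFI1 cluster, 2 of 7 in the PRKCH cluster, 5 of 10 in the SMAD3 cluster and 2 of 5 in the ARHGAP29 cluster held TGANTCA. Over all windows of this length centred on a FAIRE peak in a distal H3K27Ac peak the share was 34.8% (6928 of 19882), and over all FAIRE windows it was 29.4%.

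Most acetylated regions were away from the starts of protein-coding genes. On chromosomes 1 to 22 and X, which held all but 12 of the peaks, 12010 peaks (32.0%) shared at least 1 base with the window from 1 kb before to 1 kb after a protein-coding transcript start and are called promoter peaks. A further 4210 (11.2%) were within 1 kb of another annotated start, such as that of a non-coding transcript. Of the rest, 13679 (36.5%) had their centre inside a gene and 7584 (20.2%) were intergenic. The last 2 classes together are called distal peaks, and there were 21263 of them (56.7%). Because promoter peaks were wider, they made up 37.1% of the acetylated bases, and distal peaks 50.4%.

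The list covered 119.8 Mb, or 3.95% of these chromosomes. The median width of promoter peaks was 3095 bases (95% order-statistic interval 3069 to 3125), with quartiles of 2461 and 4133. Distal peaks had a median of 2389 bases (2374 to 2405), with quartiles of 1860 and 3282. Gene body and intergenic peaks were alike in width, with medians of 2409 and 2353 bases, and peaks at other starts lay between, at 2770. Peaks of 5 kb or more were 15.3% of promoter peaks, 16.2% of peaks at other starts and 7.96% of distal peaks. Only 520 peaks reached 10 kb, and of these 248 were promoter peaks, 124 were at other starts and 148 were distal. A wider peak is more likely to meet a start window by construction. By centre, 10548 peaks lay within 1 kb of a coding start, with a median width of 2993 bases and 9.38% of 5 kb or more. For the 6608 peaks with a centre 5 to 20 kb away these values were 2521 bases and 10.6%. The widest 10% of all peaks carried 24.3% of the acetylated bases.

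**Figure D1:**
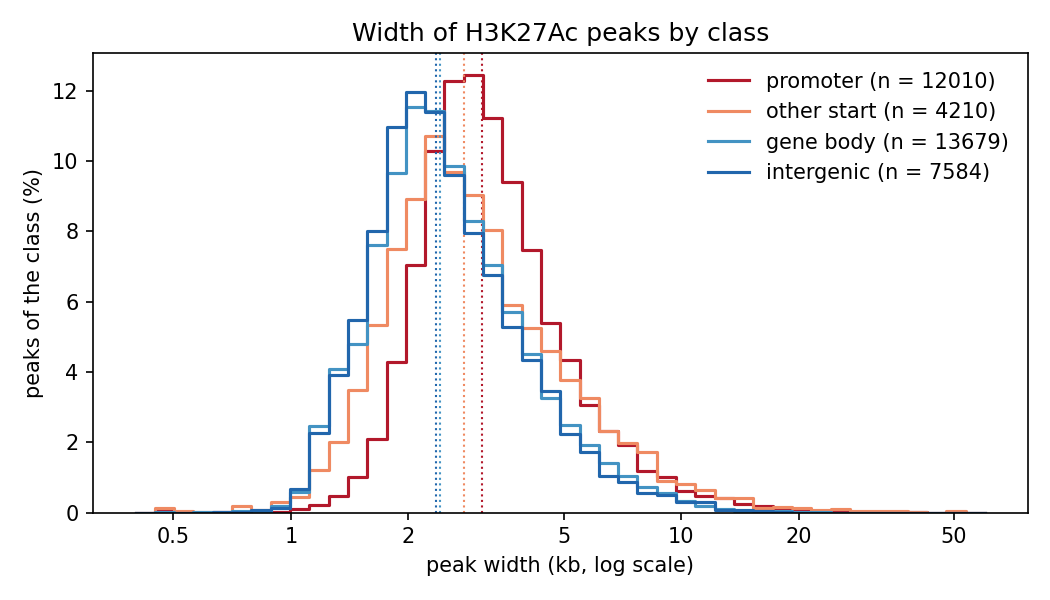
Width of H3K27Ac peaks on a log scale (kb) against the percent of peaks of each class, with dotted lines at the medians. Gene body and intergenic peaks overlie each other, with medians of 2409 and 2353 bases, and promoter peaks are shifted to a median of 3095 bases.

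The score of a peak, its MACS p-value on a −log10 scale multiplied by 10, followed the width. Scores ran from 50.02 to 3233, and 3670 peaks had a score of exactly 3100 while 258 were above it, so these peaks cannot be ranked by score. Across the 33555 peaks below 3100, Spearman's correlation of width and score was 0.791, where both measures come from the same reads. Promoter peaks had a median score of 1172 and distal peaks one of 339.3. Scores under 100 were found for 3.97% of promoter peaks and 18.5% of distal peaks. Among the 3928 peaks that scored 3100 or more, 40.3% were promoter peaks, 28.1% were in gene bodies, 16.8% were intergenic and 14.8% were at other starts. Their median width was 5644 bases, against 2521 bases for the others.

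A small set of wide peaks went the other way. Of the peaks of 10 kb or more, 17 had a score under 500, and their median width of 19359 bases was above the 12227 bases of the other 503. Promoter peaks made up 13 of the 17 and 235 of the other 503. An H3K4me1 peak met 4 of the 17 (23.5%) and 71.4% of the other 503, while an H3K4me3 peak met 13 (76.5%) and 56.3%. FAIRE peaks were present in all 17 and in 98.6% of the others, at 1.98 and 2.54 per 10 kb. ACTN4, BCL2L1 and CAPN2 carried the widest of them, as described with the widest peaks.

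Promoter and distal peaks differed in the other marks they met. An H3K4me3 peak shared sequence with 10970 promoter peaks (91.3%, 95% Wilson interval 90.8% to 91.8%) and with 2147 distal peaks (10.1%, 9.70% to 10.5%). The order was the opposite for H3K4me1, which met 3199 promoter peaks (26.6%, 25.9% to 27.4%) and 14791 distal peaks (69.6%, 68.9% to 70.2%). FAIRE peaks met 6835 promoter peaks (56.9%, 56.0% to 57.8%) and 15759 distal peaks (74.1%, 73.5% to 74.7%), so open DNA was called more often in distal than in promoter peaks although the distal peaks were narrower. When only FAIRE peaks no lower than the median of their list were used, the shares were 35.4% of promoter peaks and 48.0% of distal peaks. These intervals cover counting error over peaks and not the spread between samples.

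The most frequent combination in distal peaks was H3K4me1 with FAIRE and without H3K4me3, at 11545 peaks (54.3%). These had a median width of 2726 bases and a median score of 564.5. Promoter peaks fell mainly into H3K4me3 alone (4238 peaks, 35.3%) and H3K4me3 with FAIRE (4239 peaks, also 35.3%), with median scores of 900.1 and 1281. All 3 other lists met 1833 promoter peaks (15.3%), which were wide, with a median of 4504 bases, and 719 distal peaks (3.38%), with a median of 3413 bases. No other list met 2257 distal peaks (10.6%) and 151 promoter peaks (1.26%). The distal ones of this kind were weak, with a median score of 109.9, a median width of 1825 bases and 44.7% of scores under 100.

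**Figure D2:**
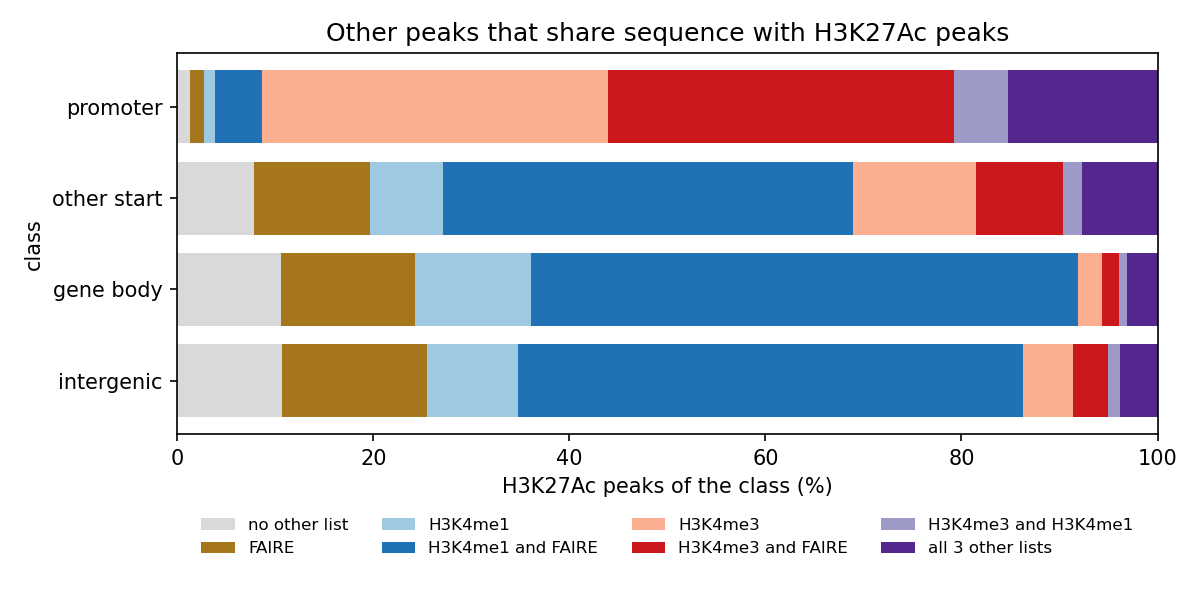
Percent of H3K27Ac peaks of each class (horizontal axis) that share at least 1 base with each combination of H3K4me3, H3K4me1 and FAIRE peaks (colours). H3K4me3 colours fill most of the promoter bar, and H3K4me1 with FAIRE takes 55.8% of gene body peaks and 51.5% of intergenic peaks.

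The marks met by distal peaks rose with their score. When the distal peaks below 3100 were divided at the quartiles of their score, the share with H3K4me1 was 49.4%, 62.6%, 74.2% and 84.1% from the lowest to the highest class, and 91.5% in the 1763 distal peaks at 3100 or more. The share with FAIRE was 53.6%, 66.5%, 77.4%, 90.2% and 98.4% in the same order. Median width also rose, from 1617 bases to 5492 bases, and a wider peak has more sequence to share. Counted per length, the centres of FAIRE peaks were about as dense in each class, between 3.24 and 3.34 per 10 kb.

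Most distal peaks held a single open site. A single FAIRE centre was found in 58.8% of distal peaks, 2 centres in 11.9% and 3 or more in 3.28%, and 26.0% had none. In promoter peaks the shares were 43.7%, 9.66%, 3.46% and 43.2%. Among the 520 peaks of 10 kb or more, 70.8% had 3 or more FAIRE centres. In the 12497 distal peaks with a single FAIRE centre, it lay in the middle 20% of the peak's length in 59.6% and in the outer 20% in 0.736%. In the 5244 such promoter peaks these shares were 37.5% and 1.56%, and an even spread would give 20%. In all, 33309 of the FAIRE peaks on these chromosomes (71.6%) had their centre in an H3K27Ac peak, with a median height of 67.5, compared with 50.2 for the 13227 outside.

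Close to the start, acetylation at promoters reached farther into the gene than before it. At the 78394 distinct coding transcript starts, many of which are alternative starts of 1 gene, H3K27Ac peaks covered 56.6% of start bases, 46.8% of positions 1 kb before and 51.8% of positions 1 kb after the start. At 2 kb before and after these shares were 18.6% and 21.3%. Farther out the order was reversed, with 8.83% before and 7.21% after at 5 kb, and 7.90% and 7.06% at 10 kb. H3K4me3 was higher at the start itself (59.3%) and lower 2 kb before it (13.1%) and after it (17.8%). H3K4me1 dipped to 6.22% at the start and peaked at 10.6% at 1700 bases into the transcript. FAIRE was the narrowest, with 24.4% at 200 bases before the start and 3.78% at 1 kb after. Among 1239 peaks that covered the start of a gene with 1 coding start and no other coding gene, the median reach was 1208 bases before and 1684 bases after the start, and 76.3% reached farther after it.

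**Figure D3:**
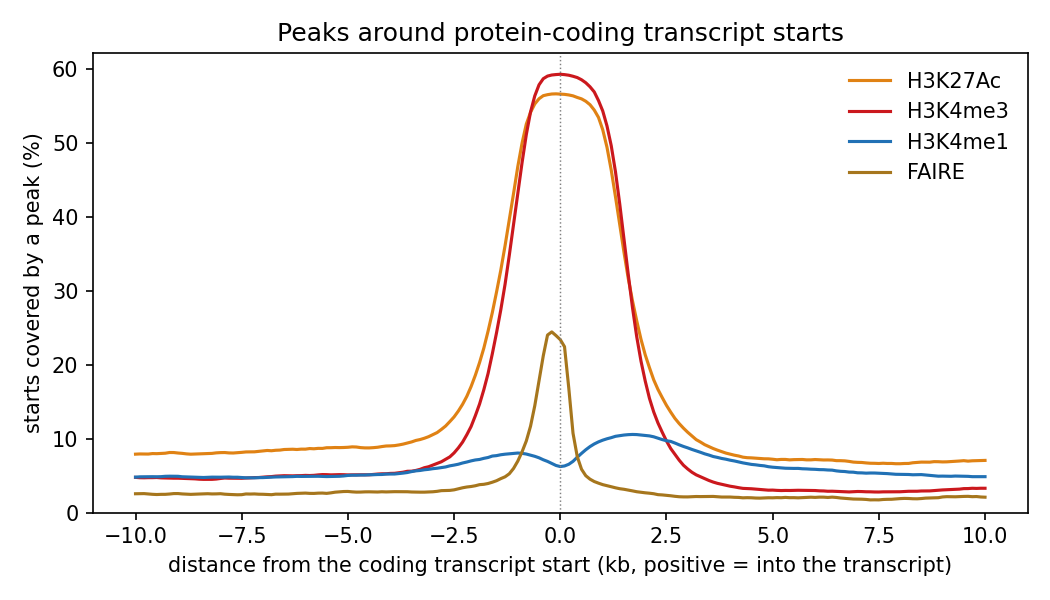
Percent of protein-coding transcript starts (vertical axis) covered by a peak of each list at each distance from the start (kb, positive into the transcript). H3K27Ac and H3K4me3 form broad plateaus of 56.6% and 59.3% at the start, FAIRE is narrow and H3K4me1 dips at the start.

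Promoter peaks in reach of more coding starts were wider, and a wider peak reaches more starts by construction. Starts of 1 coding gene were in reach of 10261 promoter peaks (85.4%), with a median width of 3035 bases and a median score of 1112. For the 1634 peaks with starts of 2 genes these values were 3386 bases and 1491, and for the 115 peaks with 3 or more they were 3952 bases and 2143. Coding starts on both strands were found in 1475 peaks, with a median width of 3426 bases, against 3041 bases for starts on 1 strand.

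Beyond 5 kb from coding starts the median width became smaller with distance, in small steps. The centre of a distal peak was at a median of 42.7 kb from the nearest coding start. The distance classes that follow count all peaks and not distal ones alone. Peaks with their centre 5 to 20 kb away numbered 6608, of which 79.1% were distal. They had a median width of 2521 bases and a median score of 391.7, and 64.3% met H3K4me1 and 71.6% met FAIRE. The score and these shares did not fall steadily, since the 6308 peaks 20 to 50 kb away had a median score of 409.4, with 68.9% and 75.3%, and H3K4me1 was most frequent 50 to 100 kb away, at 72.2%. In the 5820 peaks 100 to 500 kb away the medians were 2363 bases and 361.2, and 71.5% met H3K4me1 and 75.6% met FAIRE. Beyond 500 kb there were 1038 peaks (2.77%), with medians of 2090 bases and 254.3, of which 60.0% met H3K4me1 and 67.8% met FAIRE. The 2822 peaks with a centre 1 to 5 kb from a coding start stood apart, since 29.4% of them were 5 kb or wider and 50.4% still reached into a promoter window.

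Promoter and distal peaks differed in base composition. The classes were set by coding starts. The composition of starts without an H3K27Ac peak was not computed, so the difference describes the classes and not acetylation. The median GC content was 52.4% in promoter peaks and 41.4% in distal peaks. The ratio of observed to predicted CpG, a measure that is high in CpG islands, had a median of 0.601 in promoter peaks and 0.205 in distal peaks, and reached 0.6 in 50.4% and 1.16% of them. Promoter peaks that met H3K4me1 had lower values (GC 47.7%, CpG ratio 0.498) than promoter peaks that did not (53.9% and 0.629). Distal peaks that met H3K4me3 had a CpG ratio of at least 0.6 in 11.1% of cases, compared with 0.0418% of distal peaks without H3K4me3.

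The open sites of distal and promoter peaks carried different letters. In windows of 300 bases centred on FAIRE peaks, TGANTCA was present on either strand in 46.7% of 19882 windows in distal H3K27Ac peaks (95% Wilson interval 46.0% to 47.3%), 20.8% of 9079 windows in promoter peaks, 39.5% of 13227 windows outside H3K27Ac peaks and 39.2% of all FAIRE windows. With windows of 150 bases the distal share was 27.6%. GGAATG, the letters of TEAD factors, which carry YAP and TAZ to DNA, was found in 24.3% of distal, 16.7% of promoter and 19.1% of outside windows. Letters rich in G and C went the other way. GGGCGG, bound by SP factors, was in 38.1% of promoter windows, 4.65% of distal windows and 11.7% of all, and CCGGAAG, bound by ETS factors, was in 11.5%, 1.58% and 3.46%. In windows outside H3K27Ac these letters were in 4.59% and 1.02%. The median GC content of these windows was 53.0% in promoter peaks and 42.3% in distal peaks, and its part in these shares was not tested.

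TGANTCA was placed close to the middle of the open sites. In steps of 50 bases, it was found in 10.9% of distal FAIRE peaks in the first step after the centre, and in a median of 2.16% over the 20 steps at least 500 bases away (lowest 1.79%, highest 2.43%). For FAIRE peaks outside H3K27Ac the first step had 9.37% and the distant steps a median of 1.59%, and for promoter peaks these values were 4.32% and 1.46%. In the classes set by the quartiles of FAIRE height, the share of distal windows of 300 bases with TGANTCA was 41.9%, 44.7%, 48.4% and 51.7% from the lowest to the tallest. It did not follow the H3K27Ac score in the same way, with 49.3% in distal peaks scoring under 100 and 43.4% in those at 3100 or more. For other letters the distal windows and the windows outside H3K27Ac differed by fewer percentage points, and in either direction. All of them were also less frequent than TGANTCA. Relative to frequency, some differed by as much or more, such as CAGGTG, which was lower in distal windows, and CCGGAAG, which was higher. RUNX letters TGTGGTT were in 11.7% and 12.0%, FOX letters TGTTTAC in 6.35% and 6.94%, GATA letters AGATAA in 18.8% and 19.1%, and CAGGTG, an E-box that ZEB and SNAI repressors bind, in 15.5% and 18.4%. CCAAT was in 36.8% and 38.0%, TGACGTCA, a cyclic AMP response element, in 0.317% and 0.265%, and TTGCGCAA, bound by C/EBP, in 0.111% and 0.144%. The letters can overlap each other and were counted separately, and a match says nothing of whether a factor was bound.

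**Figure D4:**
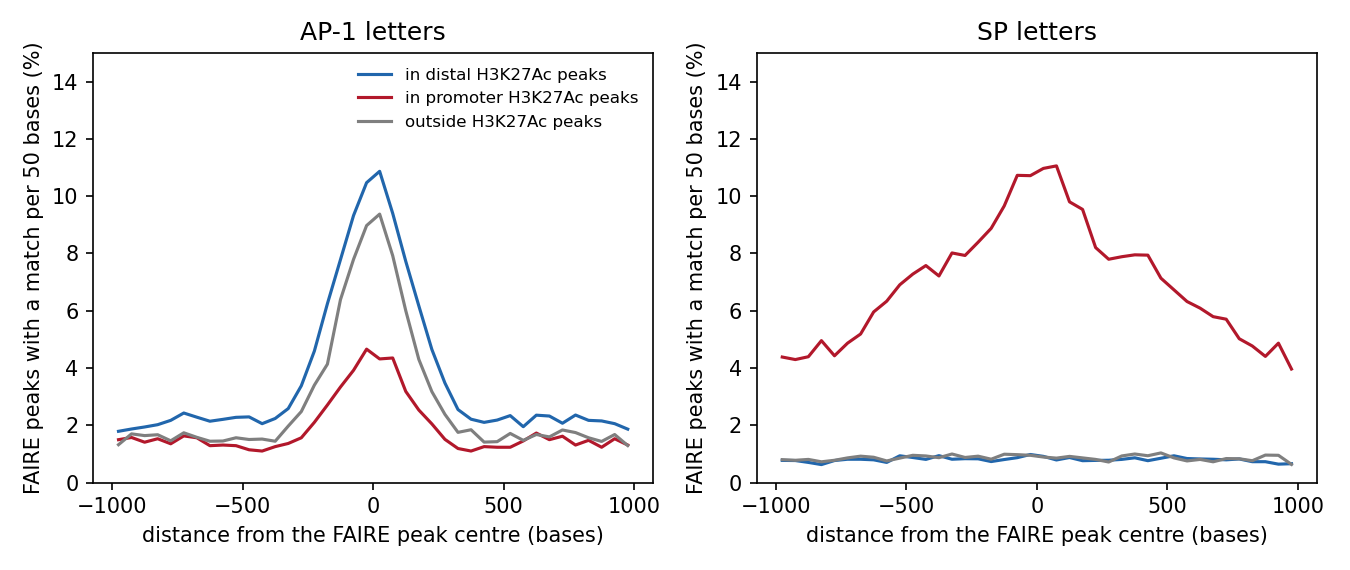
Percent of FAIRE peaks with a match per step of 50 bases (vertical axis) against distance from the FAIRE peak centre (bases), for AP-1 letters and SP letters, by the H3K27Ac peak that holds the centre. AP-1 letters peak at 10.9% in distal peaks at the centre, and SP letters reach 11.1% in promoter peaks and stay near 1% elsewhere.

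The spacing of acetylated regions was described by joining neighbouring peaks into clusters. The median gap between neighbouring peaks was 24.9 kb, and peaks were joined into a cluster across 33.7% of the gaps, the widest of them 12.499 kb. This gave 24847 clusters, of which 17412 (70.1%) were a single peak. Clusters of 5 or more peaks numbered 532 (2.14%), and held 8.85% of the peaks and 11.1% of the acetylated bases. Their median span was 46.8 kb and 64.5% of them included a promoter peak. Their peaks were wider (median 3109 bases, against 2511 for single peaks), more often distal (62.8% against 52.9%) and more often met H3K4me1 (64.8% against 48.0%), while the shares with FAIRE were 71.5% and 65.5%. The number of clusters of 5 or more peaks rose with the gap allowed, with 80 for 5 kb and 1423 for 25 kb. It was 152 when only distal peaks were joined.

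The cluster with the most acetylated bases was at ERRFI1, a feedback inhibitor of the EGF receptor. It spanned 227 kb (chr1:8053451-8280816) and held 19 peaks, the most of any cluster, with 128.8 kb acetylated and 34 FAIRE centres. Of its peaks 15 were distal and 15 met H3K4me1. The cluster at PRKCH, which encodes a protein kinase C (chr14:61927798-62084239), had 16 peaks and 88.7 kb acetylated, and that at SMAD3, a transducer of TGF-beta signals (chr15:67288818-67445451), had 14 peaks and 87.2 kb. At ACTN4, an actin crosslinker (chr19:39125203-39226350), 85.8 kb lay in 5 peaks, so that 84.8% of the span was acetylated. ARHGAP29, a GTPase activating protein (chr1:94685762-94801929), had 79.8 kb in 11 peaks, all of which met H3K4me1.

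The next 5 clusters had between 2 and 15 peaks, and the widest peak of each was between 24219 and 51060 bases. SMURF2, a ubiquitin ligase of the TGF-beta pathway (chr17:62618039-62739100), had 77.8 kb in 10 peaks, of which 2 met H3K4me1. BCL2L1, which encodes the survival factor Bcl-xL (chr20:30248512-30329622), had 74.1 kb in 5 peaks. MICAL2, an actin-oxidising enzyme (chr11:12177201-12260078), had 72.0 kb in 4 peaks, none of which met H3K4me1 or H3K4me3, although they held 16 FAIRE centres. The cluster at MIR100HG, the host gene of miR-100 and let-7a-2 (chr11:122003864-122074813), had 70.2 kb in 2 peaks, overlapped no coding gene and lay 16941 bases from the nearest coding start. At AOPEP, an aminopeptidase (chr9:97604804-97715730), 69.7 kb lay in 15 peaks, 12 of them distal and none a promoter peak.

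The widest single peak, of 51060 bases, was the one over MIR100HG (chr11:122003864-122054923). The second, of 49042 bases (chr7:130557071-130606112), lay over the non-coding genes LINC-PINT and LINC00513, 138104 bases from the nearest coding start, and the fifth, of 38039 bases (chrX:45598619-45636657), lay over MIR222HG with miR-221 and miR-222, 538473 bases from one. These 3 peaks covered non-coding genes and no coding gene, and all 3 met H3K4me3, H3K4me1 and FAIRE peaks and had a score of 3100. Those at ACTN4 (42248 bases, chr19:39164373-39206620), BCL2L1 (39842 bases, chr20:30273077-30312918) and CAPN2, a calpain (37184 bases, chr1:223885292-223922475), met no H3K4me1 peak and had scores of only 239.6, 128.7 and 167.5. They held 5, 9 and 9 FAIRE centres. The seventh (34924 bases, chr12:66033594-66068517) also overlapped no coding gene and lay 149723 bases from the nearest coding start, that of HMGA2, and 89.9% of its length was under H3K4me1 peaks. The eighth (34918 bases, chr11:65654244-65689161) ran over FOSL1, an AP-1 gene, and its neighbours FIBP, CCDC85B, C11orf68 and DRAP1, and 80.8% of it was under H3K4me3 peaks. MICAL2 (34789 bases, chr11:12177201-12211989) and NRP1 (33905 bases, chr10:33533598-33567502) completed the 10.

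An H3K27Ac peak was within 1 kb of a coding start at 12290 of 19756 coding genes (62.2%). Of these genes, 97.2% also had an H3K4me3 peak and 56.0% a FAIRE peak at a start, compared with 16.4% and 3.43% of the 7466 genes without H3K27Ac there. Within the bounds of a gene widened by 50 kb on each side, the median acetylated length was 9.42 kb, or 6.15% of the window, and 2633 genes (13.3%) had none. At least 50 kb was acetylated at 196 genes (0.992%), and that count was 116 with 20 kb on each side and 749 with 100 kb. These 196 genes were long, with a median of 232.5 kb against 27.02 kb for all coding genes, and 10 of them had no peak at a start. Across the 19756 genes, Spearman's correlation with gene length was 0.179 for the acetylated length and -0.12 for the percent of the window, and that between the percent and the number of coding genes in the window was 0.426. Neighbouring genes share much of their windows.

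By acetylated length the leading gene was EXT1, which builds heparan sulfate (chr8:118806729-119124065). Its window had 159.4 kb acetylated, or 38.2%, in 25 peaks of which 23 were distal. The transcription factor gene RUNX1 (chr21:36160098-37376965) had 151.0 kb in 41 peaks, the largest number among the 20 leading genes, though only 11.5% of its long window. FRMD4A, a scaffold protein, had 143.5 kb, AOPEP 133.9 kb and RAD51B, a DNA repair gene, 132.4 kb. NRP1, a receptor for semaphorins and VEGF (chr10:33466420-33625190), had 125.3 kb and 48.4% of its window, and no other coding gene lay in that window. DST, which links the cytoskeleton to adhesions, had 124.1 kb, DDAH1 118.7 kb, PRKCH 118.4 kb and MICAL2 115.3 kb.

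The other 10 of the leading 20 had between 91.9 kb and 108.2 kb. They were FOXP1 (102.6 kb), a forkhead factor, BCAR3 (102.4 kb), first known for resistance to antiestrogens, HIVEP3 (100.3 kb), HMGA2 (95.4 kb), a chromatin architectural protein, CAV2 (94.9 kb), a caveolin, CRIM1 (94.4 kb), FMN1 (91.9 kb), a formin, and 3 genes annotated as readthrough of neighbours. These 3 were IQCJ-SCHIP1 (98.3 kb), ENSG00000258989 (97.3 kb), which overlaps PRKCH, and ENSG00000285708 (108.2 kb), which overlaps FOXP1, and the last was the only gene of the 20 with no H3K27Ac peak at a start. Of these 10, ENSG00000258989 (42.5%) and HMGA2 (39.5%) had the largest shares of their windows acetylated. A FAIRE peak at a start was absent at 6 of the 20, which were HMGA2, CAV2, CRIM1, PRKCH, HIVEP3 and ENSG00000285708.

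By percent of the window the order was different, and only NRP1 was in both rankings. LIF, a cytokine of the interleukin 6 family (chr22:30636442-30642748), led with 55.8% of its window, and a peak of 25669 bases (chr22:30630082-30655750) covered the whole gene, with no H3K4me3 or FAIRE peak within 1 kb of its coding starts. FLOT1 (55.7%), TUBB (50.9%) and IER3 (50.1%) are neighbours on chromosome 6 and share most of their windows, and FLOT1 and IER3 share a start peak of 6920 bases. CBARP had 50.7%, and KRT7, a keratin of simple epithelia, also 50.7%. SLC25A22 (49.8%) and PANO1 (49.4%) are neighbours on chromosome 11 with 12 coding genes in the window of each. CCN1, a matrix protein and a standard YAP target, had 49.3%, in 8 peaks of which 6 were distal, and its start peak of 12086 bases was also the start peak of DDAH1.

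Lists of genes were compared with the 62.2% of all coding genes that had an H3K27Ac peak at a start. The lists and their members were chosen with earlier results of these data known. The comparisons here and below therefore describe the listed genes and do not test them. All 34 cytosolic ribosomal protein genes had one, with a median width of their widest start peak of 4419 bases, from 2484 bases at RPS20 to 9914 bases at RPLP0, against 3222 bases over all coding genes with a start peak. Markers of other cell types had few. A start peak was found at 3 of 20 blood cell markers (CD34, CD8A and CSF1R), 2 of 20 liver cell markers (FGB and APOA1) and 5 of 20 neuron markers (TUBB3, GAD1, SYT1, MAP2 and SLC17A7). Defining markers PTPRC, CD3E, ALB and RBFOX3 had none.

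RAS-ERK output genes and YAP and TEAD genes carried wide start peaks. All 20 RAS-ERK output genes had one, with a median width of 7571 bases and a median score of 3100, and the widest was at EPHA2, a receptor tyrosine kinase (23267 bases, chr1:16463175-16486441). Of the YAP and TEAD genes 19 of 20 had one, with a median of 7746 bases and a widest peak of 23355 bases at NT5E, which encodes the surface enzyme CD73 (chr6:86157063-86180417). The narrowest was at AMOTL1 (3193 bases), and AMOTL2 had no H3K27Ac peak at a start but an H3K4me3 peak. The median acetylated length of the YAP and TEAD genes was 24.7 kb and that of the RAS-ERK genes 21.5 kb, against 9.42 kb over all coding genes. At least 50 kb was acetylated at 5 of the 20 YAP and TEAD genes (CRIM1, PTPN14, TGFB2, WWTR1 and CCN1) and at 2 of the 20 RAS-ERK genes (EPHA2 and IER3), where all coding genes had 0.992%. The median gene length was 60.5 kb for the YAP and TEAD genes and 14.8 kb for the RAS-ERK genes, against 27.02 kb for all coding genes. The part of gene length in these counts was not tested.

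AP-1 genes had a start peak in 19 of 20 cases, all but BATF2. The widest was at FOSL1 (34918 bases), which encodes the FOS family member FRA-1, and the narrowest at BATF (1911 bases), a member best known from lymphocytes. Their median width was 4220 bases and their median acetylated length 19.1 kb. Among NF-kB and cytokine genes 20 of 24 had one, with a median width of 3602 bases, nearer to the 3222 bases over all coding genes, from IL1B (1779 bases) to LIF (25669 bases), and IL1A, CCL2, CCL5 and CCL20 had none. LIF was the only one with 50 kb or more.

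Genes of the mesenchymal state, of invasion and of epithelia were split. Of the mesenchymal and matrix genes 16 of 22 (72.7%) had a start peak, where all coding genes had 62.2%. Their median width was 5529 bases, with the widest at AXL, a receptor tyrosine kinase (14094 bases, chr19:41723515-41737608), and the narrowest at SPARC (2307 bases). N-cadherin (CDH2), SNAI1, TWIST1, COL1A2, COL3A1 and COL6A2 had none, and SNAI1 and COL6A2 had an H3K4me3 peak there. Invasion protease genes had the same share, 16 of 22 (72.7%), the narrowest at CTSL (2282 bases). The 6 without were MMP1, MMP2, MMP3, MMP7, MMP9 and MMP13. Epithelial adhesion genes had 8 of 21, below the share of all coding genes, although 15 of 21 (71.4%) had an H3K4me3 peak at a start, where all coding genes had 66.6%. CLDN4 had the widest peak (7684 bases) and GRHL1 the narrowest (2259 bases). E-cadherin (CDH1), CDH3, ESRP1, GRHL2, OVOL1, OVOL2, CLDN3, RAB25, ST14, MARVELD2, MARVELD3, CRB3 and ELF3 had no H3K27Ac peak at a start.

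Luminal breast genes had a start peak in 13 of 20 cases (65.0%), near the share of all coding genes, but 17 of 20 had an H3K4me3 peak. Their start peaks had a median score of 487, against 1301 over all coding genes with one, and KRT8 and KRT18 shared the same peak. The widest was at MLPH (11744 bases) and the narrowest at CA12 (1580 bases), and the estrogen and progesterone receptor genes ESR1 and PGR, and FOXA1, TFF3, GREB1 and TBX3, were among those with none. KRT7 was the luminal gene with 50 kb or more acetylated. Basal and myoepithelial genes had 11 of 19 (57.9%), the widest at LAMB3, a laminin chain (15954 bases), and the narrowest at MYH11 (1252 bases). The keratin genes KRT5, KRT14, KRT16, KRT17, KRT6A and KRT6B of this list, and OXTR and CNN1, had none. KRT15, also of this list, had a start peak of 11383 bases that was also the start peak of the luminal gene KRT19. EGFR had 79.0 kb acetylated, the only basal gene with 50 kb or more.

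**Figure D5:**
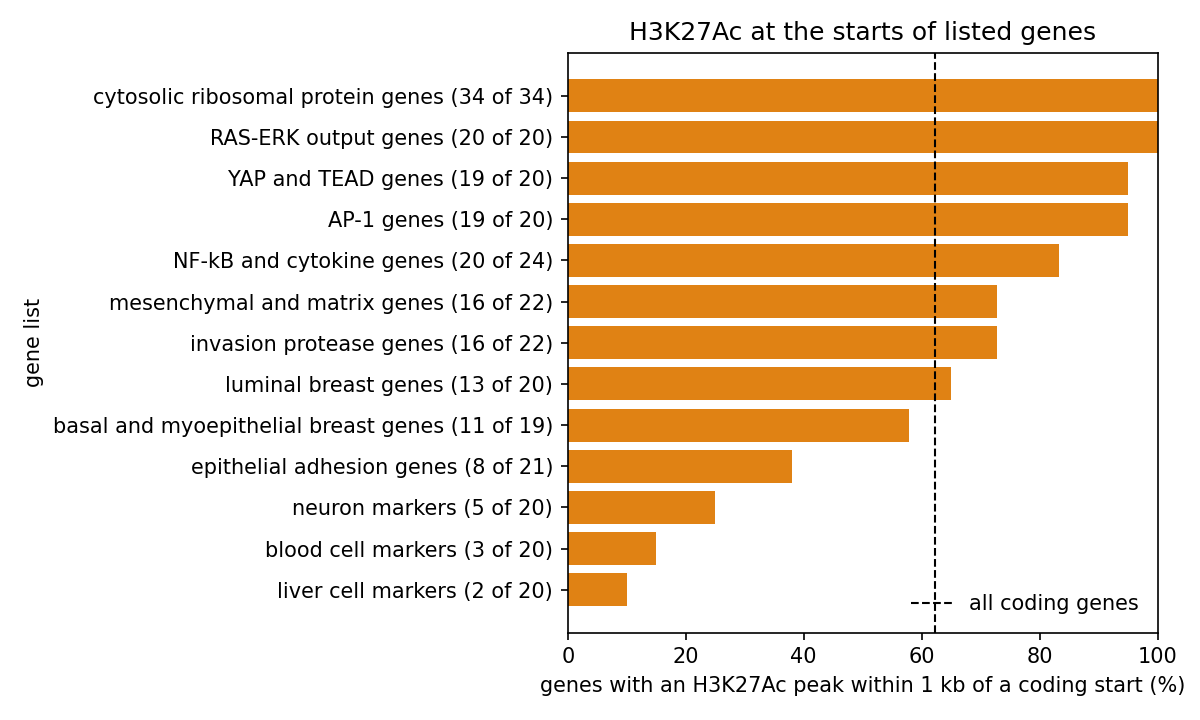
Percent of genes of each list with an H3K27Ac peak within 1 kb of a coding start (horizontal axis), with the share of all coding genes (62.2%) as a dashed line. Ribosomal protein, RAS-ERK, YAP and TEAD and AP-1 genes lie at 95% or more, and blood, liver and neuron markers at 25% or less.

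Chromosomes differed in density, counted per Mb of full length with unsequenced stretches included. The part of those stretches in the densities was not tested. The densest were chromosome 19 (21.6 peaks per Mb) and chromosome 17 (19.2 per Mb), and the sparsest X (6.96 per Mb) and 21 (7.36 per Mb), where the mean was 12.3 per Mb. Counted per coding gene the order changed: chromosome 19 had 0.889, the lowest value, and chromosome 13 had 3.34, the highest, where the mean was 1.90. Promoter peaks were 66.4% of the list on chromosome 19 and 20.4% on chromosome 13. The copy number of chromosomes in this aneuploid line was not measured here, and its part in these counts was not tested.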

How the data were processed

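H3K27Ac was measured by ChIP-seq with 2 samples and 1 input. As described for the study, the authors aligned the reads with BWA to hg19, discarded duplicates and poorly mapped reads, combined the replicates and called peaks with MACS under default settings. The score of each histone peak is the deposited −log10 value, multiplied by 10, of its MACS p-value. The height of each FAIRE peak is the signal deposited by the authors, who called these peaks with FindPeaks. Read depth is not given in the lists, and intervals cover counting over peaks only.

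Here peaks were compared with Python 3.11.15, numpy 2.4.6, pandas 2.3.3, scipy 1.17.1 and matplotlib 3.10.9. Overlap meant at least 1 shared base. The interval code was tested on simulated data, where its results for 1500 intervals differed from those of bedtools 2.31.1 at 0. Annotation was GENCODE v44lift37, on the build the authors used. The 12 peaks on other contigs were not annotated. Windows around FAIRE peaks were 300 bases, and printed sequences 200 bases.

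Named regions and genes are the 10 widest peaks, the 10 leading clusters, the 20 coding genes with the most acetylated bases within 50 kb of their bounds, the 10 with the largest percent of that window, and, in each of 13 gene lists (282 genes), the members with the widest and narrowest start peak and with none. A few of these are not reported here. Members and lists were chosen with earlier results of these data known. Alternatives changed the score threshold, the start window, the rule for overlap, the gap, the gene flank and the motif window.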

Additional observations from a re-analysis of the deposited data

How the results depend on the processing

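Of 43 alternatives to the 11 main results, 21 gave a value within the 95% interval of the reported one or, for counts, within 1.5 times, and 22 did not, 11 of them higher and 11 lower. The counts of promoter peaks and of coding genes with a start peak stayed within 1.5 times under every alternative tried for them. For peaks with p no higher than 1e-10, the median width was 3155 bases for promoter peaks and 2618 bases for distal peaks, H3K4me3 met 92.2% of promoter peaks, and H3K4me1 and FAIRE met 74.3% and 79.0% of distal peaks. With start windows of 2.5 kb, the median width of promoter peaks was 3059 bases and 86.9% met H3K4me3, and with windows of 500 bases 92.3% did. With the centre of the H3K27Ac peak inside the H3K4me3 peak that share was 88.7%, and with H3K4me1 within 1 kb the distal share was 70.6%. With FAIRE peaks no lower than the median of their list, 48.0% of distal peaks and, in an alternative chosen after seeing the data, 35.4% of promoter peaks met one, and 49.2% of distal windows held TGANTCA. Windows of 150 and 500 bases gave 27.6% and 60.6%. Clusters of 5 or more numbered 80 with a gap of 5 kb, 1423 with 25 kb and 152 among distal peaks only. Genes with 50 kb or more numbered 116 with flanks of 20 kb and 749 with 100 kb. Medians for peaks scoring below 3100, chosen after seeing the data, were 2916 bases for promoter and 2295 bases for distal peaks.

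In each setting for which both median widths were computed, promoter peaks were wider than distal peaks. All of these settings called a promoter peak by 1 shared base, so they could not show the part of that rule in the widths. Larger windows, gaps and flanks take in more sequence by construction, and for the other settings the cause was not tested. No paired analysis was possible because the 2 samples of a mark share 1 combined list, and for the same reason no sample was left out in turn. The read depth behind a peak is unknown.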
